A study of Mus musculus with 12 samples.

Results

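The 88 cytosolic ribosomal protein genes are the rows of the count table whose symbol is Rpl or Rps followed by a number, with the suffixes used for family members, together with Rplp0, Rplp1, Rplp2 and Rpsa. They were chosen by symbol alone from 25540 rows. Their mRNA was measured in livers of BALB/c mice that had been injected with preparations named iExos, taken here as exosomes, the small vesicles that cells release, from the title of the series. The tested preparations were labelled siSTAT3 and mASO STAT3, and their controls siCntrl and mASO Scrbl, with 3 libraries in each of the 4 groups. By common usage si stands for small interfering RNA and ASO for antisense oligonucleotide. What the m before ASO means is not stated in the labels. The title names STAT3 as the target and liver fibrosis as the setting. The labels give neither the age of the mice nor a liver injury, and livers that received no iExos were not analysed here. Nothing in the labels says whether the 3 libraries of a group came from 3 mice, so the p-values measure the spread between these libraries, which may be partly technical.

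The cytosolic ribosome joins a large subunit, which forms peptide bonds, and a small subunit, which reads the mRNA. A ribosome is built with about a single copy of most of these proteins. Most ribosomal protein mRNAs start with a C followed by a run of C and T (U in the RNA), the 5′ terminal oligopyrimidine or TOP motif, through which mTORC1 and LARP1 control their translation and stability. In liver, ribosome production follows feeding and rises when hepatocytes regrow. Many of these genes carry small nucleolar RNAs (snoRNAs) in their introns, and scattered processed pseudogenes of nearly every member lie across the mouse genome.

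The TOP start could be seen in the promoter windows that RefSeq gives for mouse build GRCm38.p6, which held 64 of the members. The next lines show the start region of 6 of them. They are the members whose annotated start is a C opening a run of at least 5 C or T and whose level passed the test in at least one comparison described below. Each line has 40 bases before the annotated start and 20 from it, with the run in capitals.
Rpl28, chr7:4792925-4792984, plus strand: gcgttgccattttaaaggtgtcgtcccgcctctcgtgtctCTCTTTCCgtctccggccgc
Rps18, chr17:33955646-33955705, minus strand: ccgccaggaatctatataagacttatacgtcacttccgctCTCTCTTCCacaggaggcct
Rps27, chr3:90213629-90213688, minus strand: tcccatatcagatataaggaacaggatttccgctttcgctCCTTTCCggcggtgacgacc
Rps15a, chr7:118116128-118116187, minus strand: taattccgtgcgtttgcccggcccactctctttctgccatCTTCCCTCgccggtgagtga
Rps6, chr4:86857348-86857407, minus strand: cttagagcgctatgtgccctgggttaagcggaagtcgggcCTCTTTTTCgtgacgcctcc
Rpl15, chr14:18270967-18271026, minus strand: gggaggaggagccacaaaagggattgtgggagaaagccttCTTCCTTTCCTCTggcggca
On the main scaling described below, the first 3 genes were higher in the siSTAT3 group and the last 3 were lower in a STAT3-labelled group. The same kind of start thus stood on genes of either direction on that scaling. None of the 3 rises passed without the second siSTAT3 library, and on library totals 0 members were higher.

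Such a start was found in 13 of the 64 members (20.3%), against 3.01% of all 27025 genes with a window and 2.88% of the tested genes outside the family. It was found in 4 of 15 other TOP mRNAs with a window and in 0 of 65 mitochondrial ribosomal protein genes. It stood in 6 of the 13 members with a window that passed in either arm and in 7 of the 48 that passed in neither. The letters CTTTC or CTTTT, sought on the gene's strand from 10 bases before to 40 after the start, were found in 45.3% of members and 12.2% of all genes. The core of the ETS-family motif, CCGGAA on either strand of the whole 300-base window, was in 54.7% of members and 16.7% of all genes. It was in 28.6% of tested genes outside the family and in 55.4% of the mitochondrial ribosomal protein genes. The GC box GGGCGG, also sought on both strands, was in 62.5% of members and 38.2% of all genes, but in 65.0% of tested genes outside the family. These matches describe annotated windows, and an annotated start that is a few bases off can hide a TOP motif.

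Library totals ran from 39844158 to 67791159 counts. Stat3, the named target, overlapped between the groups of each arm on TMM-scaled totals, with 91.5, 116 and 122 CPM (counts scaled to a common library total) in libraries labelled siSTAT3, against 106, 121 and 111 CPM in siCntrl. It had 105, 88.2 and 115 CPM in libraries labelled mASO STAT3, against 106, 90.0 and 101 CPM in mASO Scrbl. Its log2 fold changes were −0.03 ± 0.14 (SE, edgeR adjusted p = 0.868) and 0.05 ± 0.14 (adjusted p = 0.792). CPM are given on totals scaled by edgeR's trimmed mean of M values (TMM), a scaling that sets the bulk of genes level between libraries. On library totals Stat3 passed as lower in both arms, with log2 fold changes of −0.54 and −0.53 (adjusted p = 0.00446 and 0.00413), beside a median over all genes of −0.53 and −0.63. Stat3 mRNA thus gave no check of the labels beyond the shift of the median gene, and directions below are those of the labelled libraries. The liver label fitted its markers, the 12 hepatocyte markers summing to at least 52576 CPM in every library.

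The first question was how much of the liver's mRNA the family took up. The 88 genes held 2.17%, 2.65% and 1.91% of all counts in libraries labelled siSTAT3, against 2.91%, 3.30% and 3.23% in siCntrl. They held 2.39%, 2.12% and 2.13% in libraries labelled mASO STAT3, against 3.36%, 3.79% and 3.37% in mASO Scrbl. The ranges did not overlap in either arm. Without the 10 most abundant genes and the mitochondrially encoded ones, the share was 2.52% to 3.48% in siSTAT3 against 3.70% to 4.09% in siCntrl, and 2.67% to 3.19% in mASO STAT3 against 4.11% to 4.50% in mASO Scrbl, again without overlap. No member was among the 100 genes with the highest counts in any STAT3-labelled library, against 2 members in each siCntrl library and 2 to 4 in the mASO Scrbl libraries.

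On TMM-scaled totals the picture changed. The members then summed to 25806, 32730 and 23420 CPM in libraries labelled siSTAT3, against 26276, 26242 and 28922 CPM in siCntrl. The sums were 29420, 23531 and 26552 CPM in libraries labelled mASO STAT3, against 27116, 29854 and 26956 CPM in mASO Scrbl. The groups overlapped in both arms on this scale. TMM factors lay between 0.804 and 0.901 in STAT3-labelled libraries and between 1.11 and 1.27 in the controls, and that step carries the difference between the scales. When library totals were used in place of TMM, the median log2 fold change moved to −0.53 for all genes and −0.53 for the members in the siRNA arm, and to −0.63 for all genes and −0.66 for the members in the mASO arm. The family thus moved with the median gene under both scalings, and the fold changes below are relative to the bulk of genes.

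**Figure D1:**
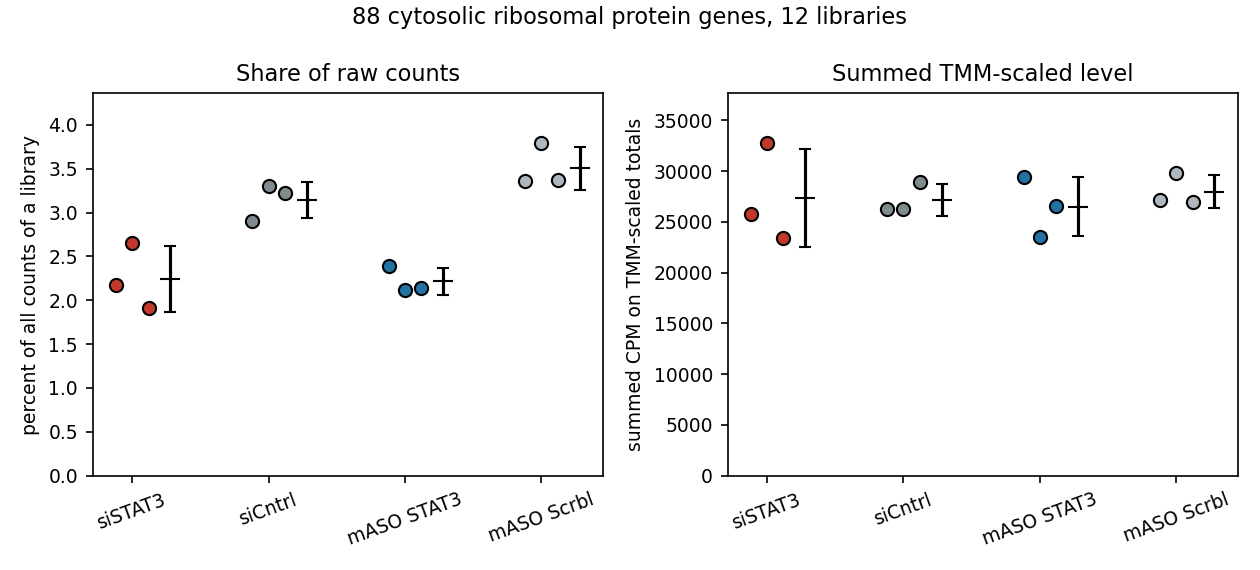
Share of all raw counts (left, percent) and summed CPM on TMM-scaled totals (right) of the 88 cytosolic ribosomal protein genes in each of the 12 libraries. Points are libraries, and bars give the mean and SD of 3. The shares do not overlap within either arm (1.91% to 2.65% in siSTAT3 against 2.91% to 3.30% in siCntrl, and 2.12% to 2.39% in mASO STAT3 against 3.36% to 3.79% in mASO Scrbl), while the TMM-scaled sums overlap.

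Cell type markers moved with the groups in the same libraries. The 12 hepatocyte markers summed to 142869 to 154898 CPM in siSTAT3 against 52576 to 92106 CPM in siCntrl, with 8 higher and 0 lower (5 and 1 on library totals). Those markers summed to 126586 to 167473 CPM in mASO STAT3 against 59376 to 89254 CPM in mASO Scrbl, with 10 higher and 0 lower (5 and 0 on library totals). The 11 stellate cell and myofibroblast markers summed to 217 to 261 CPM in siSTAT3 against 1241 to 1644 CPM in siCntrl, and to 253 to 314 CPM in mASO STAT3 against 847 to 1990 CPM in mASO Scrbl, with 1 higher and 9 lower in the siRNA arm and 2 higher and 9 lower in the mASO arm. The 8 cholangiocyte markers, 7 of them tested, summed to 560 to 822 CPM in siSTAT3 against 4687 to 6111 CPM in siCntrl. In the mASO arm they summed to 651 to 756 CPM in mASO STAT3 against 7484 to 9043 CPM in mASO Scrbl. Of the 7 tested, 0 were higher and 6 lower in the siRNA arm, with 0 and 5 in the mASO arm. On library totals Spp1, which is also on the macrophage list, Krt8 and Krt18 fell most in both arms. Their log2 fold changes ran from −3.93 to −3.32 in the siRNA arm and from −4.34 to −4.11 in the mASO arm. Those of Krt7, Krt19, Sox9 and Epcam ran from −2.17 to −1.57 and from −2.40 to −0.69. The sums thus do not describe each marker of this list. Krt19 did not pass on library totals in the mASO arm (log2 fold change −0.69, adjusted p = 0.183, edgeR). Of 10 cell cycle markers, 6 were lower in each arm, and of 11 tested macrophage markers 0 were higher and 8 lower in the siRNA arm, with 1 and 5 in the mASO arm. Of 8 neutrophil markers 4 were lower in the siRNA arm and 5 in the mASO arm, and none higher. Of 8 endothelial markers 0 were higher and 5 lower in the siRNA arm, with 1 and 3 in the mASO arm. Of 10 tested lymphoid and plasma cell markers 1 was higher and 1 lower in the siRNA arm, with 3 and 0 in the mASO arm. The tested markers of these lists had passed the filter on low counts described below, so none could be at 0 in all 12 libraries. In bulk liver, fewer cells of a type and less RNA per cell cannot be told apart, and the part of these shifts in the members' values was not tested.

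Single members were compared in 1 edgeR quasi-likelihood fit over all 12 libraries, with Benjamini-Hochberg adjustment over all 15720 genes tested, and a gene passed at an adjusted p under 0.05. The filter on low counts kept 83 members. The 5 left out were Rpl10l, known in mouse from testis, with 1 count over the 12 libraries, Rpl39l with 24, Rpl3l, known from heart and skeletal muscle, with 78, Rps12l1 with 7 and Rps12l2 with 12. All 43 large subunit genes, all 3 stalk genes and all 31 small subunit genes were kept, with 4 of 7 paralogs and 2 of 4 numbered copies.

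In libraries labelled siSTAT3, 10 members were higher and 6 lower than in siCntrl. That is 19.3% of the 83, where 45.7% of all genes tested passed in this comparison, 22.4% higher and 23.4% lower. The groups did not overlap for 21 members, 12 above and 9 below, against 53.0% of all genes. The median member changed by −0.03 on the log2 scale, and the median of all genes by −0.04. None of the 83 members had a log2 fold change beyond 1 in size, which 4878 of the 15720 genes had. The 95% interval of the log2 fold change lay within ±1 for 79 members, the exceptions being Rpl36, Rps15, Rps12 and Rps3a3, against 6487 of all genes.

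In libraries labelled mASO STAT3, 2 members were higher and 6 lower than in mASO Scrbl. That is 9.64% of the 83, where 43.8% of all genes passed, 21.3% higher and 22.5% lower. The groups did not overlap for 23 members, 5 above and 18 below, against 56.8% of all genes. The median member changed by −0.08 and the median of all genes by −0.05. The intervals of 79 members again lay within ±1, with Rpl36, Rps12, Rps21 and Rps3a3 as the exceptions.

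**Figure D2:**
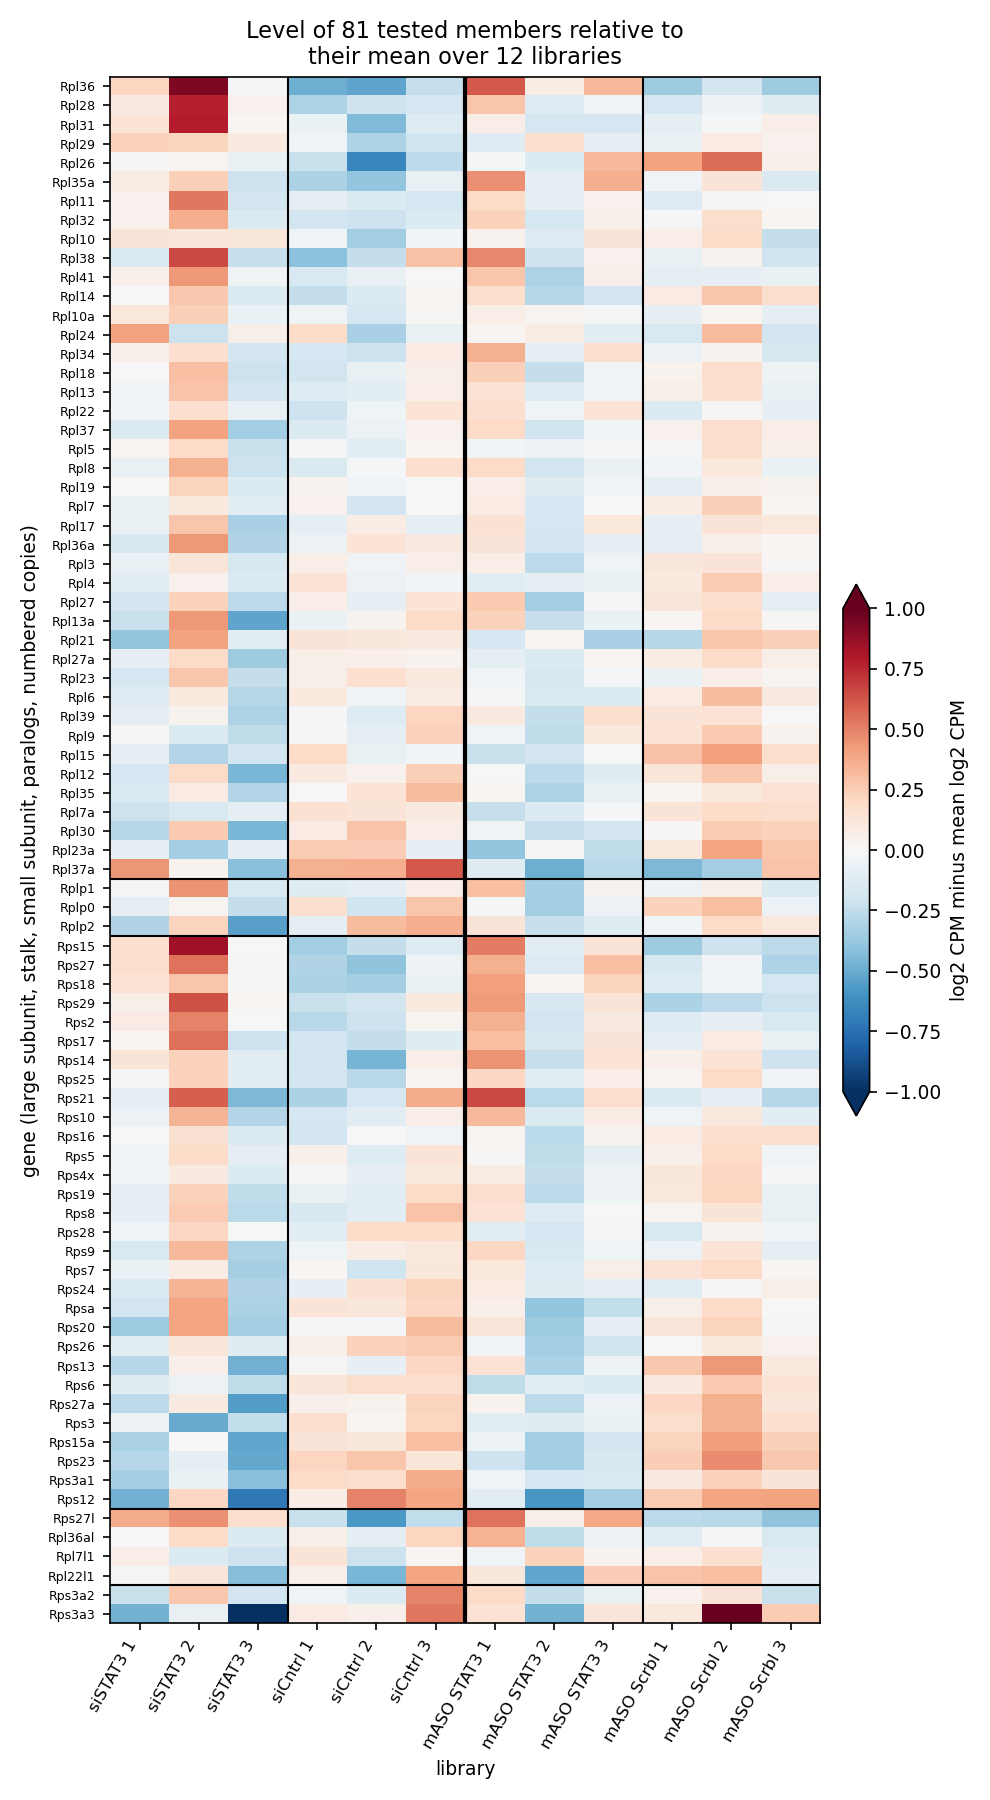
Level of 81 of the 83 tested members (rows, ordered by part of the ribosome and, within it, by the change in the siRNA arm) in the 12 libraries (columns), as log2 CPM on TMM-scaled totals minus the member's mean over the 12 libraries. Members tend to deviate together within a library, 77 of 83 lying above their group mean in the second siSTAT3 library and 81 in the second mASO Scrbl library, and Rps23, near the foot of the small subunit block, is below its mean in all 6 STAT3-labelled libraries and above it in all 6 controls.

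Single libraries weighed on these counts. The second siSTAT3 library had 77 of the 83 members above their group mean (median log2 deviation 0.27) and the third had 4 (−0.20). The first and second mASO STAT3 libraries had 71 (0.15) and 6 (−0.18), and the second mASO Scrbl library had 81 (0.11). Without the second siSTAT3 library, 2 members were higher and 11 lower in the siRNA arm, and the median member changed by −0.14. Without the third siSTAT3 library the counts were 12 higher and 2 lower. They were 5 and 4 without the first siCntrl library, 4 and 4 without the second, and 9 and 3 without the third. For the mASO arm the counts were 1 and 3 without the first or the third mASO STAT3 library, 7 and 4 without the second, 1 and 6 without the first mASO Scrbl library, 2 and 2 without the second and 1 and 5 without the third. When library totals replaced TMM, 0 members were higher and 57 lower in the siRNA arm, with 0 and 71 in the mASO arm. Of all genes tested, 10.5% were then higher and 46.2% lower in the siRNA arm, with 9.7% and 50.5% in the mASO arm, with the median gene shifted as given above.

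Rps23 kept its call in both arms under every alternative tried, left-out libraries included. The protein lines the decoding centre of the small subunit, where a hydroxylated proline of it sits. Rps23 had 249, 285 and 213 CPM in libraries labelled siSTAT3, against 353, 367 and 331 CPM in siCntrl. It had 264, 240 and 271 CPM in libraries labelled mASO STAT3, against 359, 421 and 367 CPM in mASO Scrbl. All 6 STAT3-labelled libraries lay below all 6 controls. The log2 fold changes were −0.49 ± 0.13 (SE, adjusted p = 0.00871, edgeR) in the siRNA arm and −0.57 ± 0.13 (adjusted p = 0.00393) in the mASO arm, and over the alternatives the adjusted p was at most 0.0452 and 0.019.

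Rps27l passed in both arms in the other direction. It encodes a near-copy of the zinc-finger protein RPS27 and is known in human cells as a target of p53. Rps27l had 180, 190 and 156 CPM in libraries labelled siSTAT3, against 119, 93.1 and 117 CPM in siCntrl. It had 203, 145 and 181 CPM in libraries labelled mASO STAT3, against 116, 115 and 105 CPM in mASO Scrbl. No STAT3-labelled library came down to the level of a control. The log2 fold changes were 0.68 ± 0.15 (adjusted p = 0.00214, edgeR) and 0.66 ± 0.15 (adjusted p = 0.00274), and library totals were the one alternative under which it no longer passed in either arm (adjusted p = 0.204 and 0.648). Its parent gene Rps27 had 333, 433 and 299 CPM in siSTAT3, against 240, 225 and 286 CPM in siCntrl, and rose by 0.50 ± 0.17 on the log2 scale (adjusted p = 0.029). Rps27 had 379, 272 and 365 CPM in mASO STAT3, against 266, 290 and 240 CPM in mASO Scrbl, with overlapping groups and an adjusted p of 0.114. Of the 9 genes listed for the p53 response to ribosome stress, 0 were higher and 5 lower in each arm (55.6%). Of all genes 23.4% and 22.5% were lower in the siRNA and mASO arms. On library totals 7 and 6 of the 9 were lower, where 46.2% and 50.5% of all genes were. Among the 9 listed genes Cdkn1a, the cell cycle inhibitor that p53 induces, averaged 1.5 CPM in siSTAT3 against 68.0 CPM in siCntrl and, for the mASO pair, 4.55 CPM in mASO STAT3 against 68.0 CPM in mASO Scrbl.

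Of the other small subunit genes, 3 fell in both arms. Rps12, whose protein is known in Drosophila for marking cells short of ribosomal proteins, had 368, 592 and 313 CPM in siSTAT3, against 540, 725 and 676 CPM in siCntrl. It had 479, 343 and 406 CPM in mASO STAT3, against 611, 677 and 680 CPM in mASO Scrbl. The groups overlapped in the siRNA arm through the second siSTAT3 library and did not overlap in the mASO arm, and the log2 fold changes were −0.61 ± 0.22 (adjusted p = 0.0329, edgeR) and −0.68 ± 0.22 (adjusted p = 0.02). Rps15a, one of the TOP-start genes shown above, had 203, 252 and 177 CPM in siSTAT3, against 277, 273 and 311 CPM in siCntrl. It had 245, 200 and 221 CPM in mASO STAT3, against 294, 337 and 298 CPM in mASO Scrbl. Its groups did not overlap in either arm (log2 fold changes −0.44 ± 0.15 and −0.48 ± 0.15, adjusted p = 0.0235 and 0.0165). Rps6, the protein that S6 kinases phosphorylate downstream of mTORC1, had 232, 243 and 212 CPM in siSTAT3, against 276, 287 and 283 CPM in siCntrl. It had 213, 234 and 230 CPM in mASO STAT3, against 270, 304 and 278 CPM in mASO Scrbl. These groups were apart too, at the smallest size of any call (−0.30 ± 0.11 and −0.33 ± 0.11, adjusted p = 0.0459 and 0.0302). In the siRNA arm all 3 genes no longer passed without the first or the third siSTAT3 library, without the third siCntrl library, or with the compared libraries alone. Rps12 and Rps6 also did not without the second siCntrl library, nor Rps6 without the first or with the replicate number as a block. Without the filter on low counts Rps6 passed in neither arm. Rps12 no longer passed in the mASO arm without the second or the third mASO STAT3 library, Rps15a without the second mASO STAT3 or the second mASO Scrbl library, and Rps6 without the first or the third mASO STAT3 or the second or the third mASO Scrbl library. Over all alternatives the adjusted p reached 0.132 and 0.0795 for Rps12, 0.104 and 0.0655 for Rps15a and 0.153 and 0.112 for Rps6 in the siRNA and mASO arms.

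A further pair of small subunit genes passed, lower, in the siRNA arm alone. Rps3a1, whose protein sits near the mRNA exit and contacts initiation factor eIF3, had 347, 417 and 326 CPM in siSTAT3, against 499, 494 and 564 CPM in siCntrl (log2 fold change −0.51 ± 0.13, adjusted p = 0.00585, edgeR). This call held under every alternative tried. Rps3a1 had 427, 386 and 394 CPM in mASO STAT3, against 463, 511 and 477 CPM in mASO Scrbl, apart as well but with an adjusted p of 0.115. Rps3, at the mRNA entry of the small subunit, had 431, 317 and 380 CPM in siSTAT3, against 506, 456 and 521 CPM in siCntrl (−0.39 ± 0.14, adjusted p = 0.0301). It had 416, 413 and 430 CPM in mASO STAT3, against 507, 575 and 503 CPM in mASO Scrbl, with an adjusted p of 0.0625. The differences between the arms were 0.25 ± 0.19 for Rps3a1 and 0.06 ± 0.19 for Rps3 (adjusted p = 0.782 and 0.961), so a call in one arm alone does not show that the arms differ. Without the second or the third siSTAT3 library, or the first or the third siCntrl library, Rps3 no longer passed, nor did it with the compared libraries alone, its adjusted p reaching 0.113 over the alternatives.

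Small subunit genes that rose in the siRNA arm included Rps15, Rps27 and Rps18. Rps15, whose tail reaches towards the decoding centre, had 534, 862 and 481 CPM in siSTAT3, against 376, 407 and 437 CPM in siCntrl. It had 682, 443 and 523 CPM in mASO STAT3, against 375, 415 and 400 CPM in mASO Scrbl. All STAT3-labelled libraries were above their controls, but Rps15 passed in the siRNA arm alone (0.62 ± 0.21, adjusted p = 0.0262, edgeR, against 0.47 ± 0.21, adjusted p = 0.0841). Rps18, in the head of the small subunit and a common reference in quantitative PCR, had 235, 260 and 211 CPM in siSTAT3, against 171, 170 and 205 CPM in siCntrl (0.37 ± 0.14, adjusted p = 0.0399). It had 283, 216 and 249 CPM in mASO STAT3, against 195, 209 and 189 CPM in mASO Scrbl, again apart, with an adjusted p of 0.0627. Rps15, Rps27 and Rps18 no longer passed without the second siSTAT3 library, nor without the first or the second siCntrl library, nor with the compared libraries alone. Under library totals Rps15 and Rps27 did not pass either. Rps18 was also lost without the first siSTAT3 library, with no filter and with the replicate block. Over the alternatives their adjusted p ran from 0.0114 to 0.615, 0.0148 to 0.955 and 0.021 to 0.42, and under library totals the log2 fold change of Rps18 was negative (−0.12).

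Rpl36 had the largest rise of the family in the siRNA arm and was the one large subunit gene to rise in both. It had 278, 458 and 236 CPM in libraries labelled siSTAT3, against 171, 166 and 204 CPM in siCntrl. It had 367, 252 and 299 CPM in libraries labelled mASO STAT3, against 187, 211 and 187 CPM in mASO Scrbl. The STAT3-labelled libraries lay above their controls throughout, highest in the second siSTAT3 library and the first mASO STAT3 library. The log2 fold changes were 0.84 ± 0.22 (adjusted p = 0.0061, edgeR), which held in the siRNA arm under all alternatives but library totals, and 0.65 ± 0.22 (adjusted p = 0.0253). In the mASO arm it no longer passed under library totals, without the first or the third mASO STAT3 library or without the first or the third mASO Scrbl library. Over the alternatives the adjusted p reached 0.156 in the siRNA arm and 0.796 in the mASO arm.

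Other large subunit genes rose in the siRNA arm. Rpl28, absent from budding yeast, had 403, 649 and 391 CPM in siSTAT3, against 307, 329 and 338 CPM in siCntrl (0.57 ± 0.18, adjusted p = 0.0221, edgeR). Rpl31, at the exit of the peptide tunnel, had 248, 388 and 228 CPM in siSTAT3, against 215, 166 and 206 CPM in siCntrl (0.56 ± 0.18, adjusted p = 0.0243). In both of these genes the second siSTAT3 library was far above the other two, and without it neither passed. Rpl28 also did not pass without the first siCntrl library, nor Rpl31 without the second, and neither passed under library totals or with the compared libraries alone. Rpl29, whose loss gives small mice, was different in that its 3 siSTAT3 libraries lay close together, at 19.8, 19.7 and 18 CPM, against 16.5, 13.6 and 14.7 CPM in siCntrl (0.36 ± 0.13, adjusted p = 0.0388). It no longer passed without the first or second siSTAT3 library or the second or the third siCntrl library, nor with the compared libraries alone, with no filter or with the replicate block, and under library totals its log2 fold change was −0.13. Over the alternatives the adjusted p reached 0.768 for Rpl28, 0.753 for Rpl31 and 0.462 for Rpl29. In the mASO arm none of these genes passed.

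No large subunit gene fell in the siRNA arm, and Rpl15 and Rpl23a fell in the mASO arm. Rpl15, needed for maturation of the large subunit rRNA, had 155, 160 and 182 CPM in mASO STAT3, against 222, 242 and 206 CPM in mASO Scrbl (−0.43 ± 0.13, adjusted p = 0.0138, edgeR). In the siRNA arm it had 169, 148 and 159 CPM in siSTAT3, against 209, 172 and 178 CPM in siCntrl, apart but with an adjusted p of 0.15. Rpl23a, which docks the signal recognition particle at the tunnel exit, had 79.4, 104 and 87.3 CPM in mASO STAT3, against 112, 137 and 126 CPM in mASO Scrbl (−0.47 ± 0.14, adjusted p = 0.0156). It had 97.4, 82.3 and 98.5 CPM in siSTAT3, against 124, 124 and 98.5 CPM in siCntrl, with an adjusted p of 0.0854. Both genes thus stood lower in all 6 STAT3-labelled libraries than in the controls of their arm. For Rpl23a in the siRNA arm this rests on 98.51 CPM in siSTAT3 against 98.54 CPM in siCntrl, which is close to a tie. Neither passed in the mASO arm without the first mASO STAT3 library or without the second mASO Scrbl library, and Rpl23a did not without the third mASO STAT3 library (highest adjusted p 0.0609 for Rpl15 and 0.0749 for Rpl23a).

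The stalk proteins recruit the elongation factors, and none of their genes passed. Rplp0 had 293, 318 and 264 CPM in siSTAT3, against 348, 271 and 379 CPM in siCntrl, and 309, 245 and 299 CPM in mASO STAT3, against 366, 384 and 300 CPM in mASO Scrbl. Its log2 fold changes were −0.19 (95% interval −0.53 to 0.15) and −0.30 (−0.64 to 0.04). Rplp1 gave 0.17 (−0.23 to 0.57) in the siRNA arm and 0.07 (−0.33 to 0.47) in the mASO arm, and Rplp2 gave −0.38 (−0.79 to 0.04) and −0.16 (−0.57 to 0.26). Rpsa, which encodes a small subunit protein also known as a laminin receptor, had 755, 1135 and 692 CPM in siSTAT3, against 941, 930 and 993 CPM in siCntrl. Its log2 fold changes were −0.15 (−0.54 to 0.24) and −0.27 (−0.66 to 0.13). These intervals include changes as large as those of several members that passed.

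**Figure D3:**
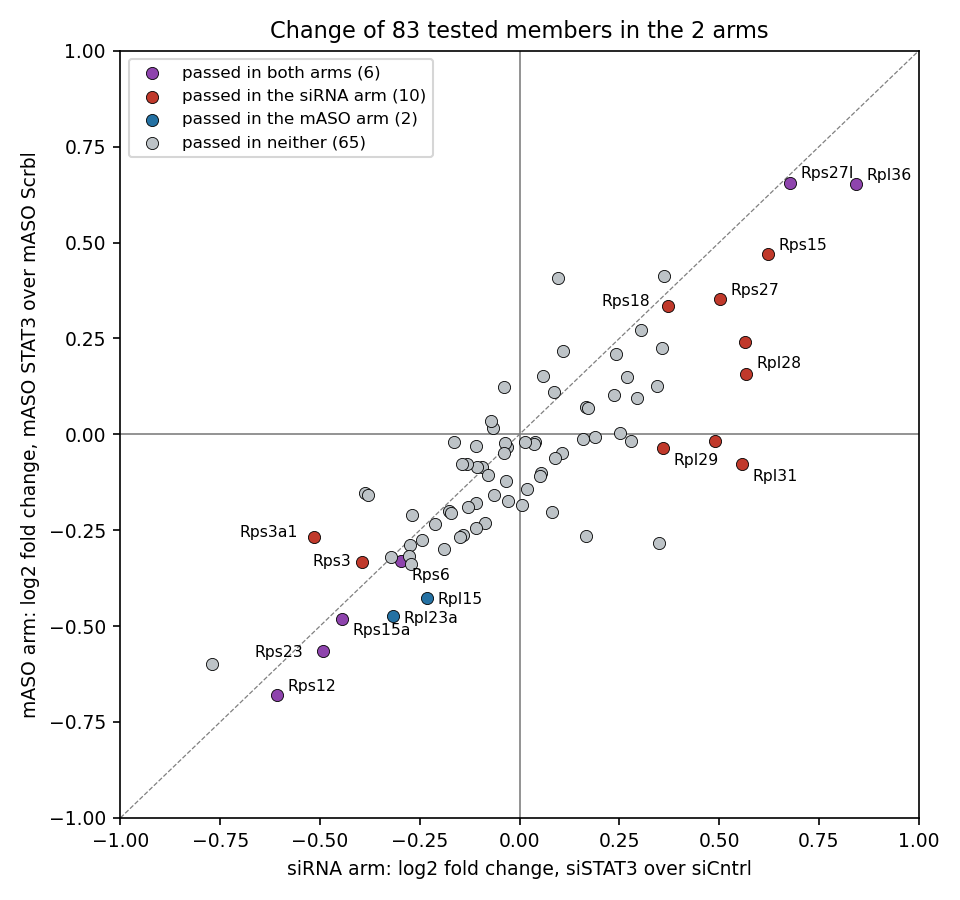
Log2 fold change of each of the 83 tested members in the siRNA arm (siSTAT3 over siCntrl, horizontal) and the mASO arm (mASO STAT3 over mASO Scrbl, vertical), coloured by the arm in which it passed at an adjusted p under 0.05. All points lie within ±1, and the 6 members that passed in both arms (Rps12, Rps23, Rps15a, Rps6, Rps27l and Rpl36) have the same sign in both.

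The arms used separate controls, so their values could be set side by side. Of the 16 members that passed in the siRNA arm, 6 also passed in the mASO arm (37.5%), which is 75% of the 8 that passed there. All 6 had the same sign. Over all 83 members the sign was shared by 62 (74.7%), against 84.1% of all genes tested. Across members the log2 fold changes of the arms had a Pearson r of 0.826 (n = 83), and across all genes of 0.864 (n = 15720). Genes are not independent replicates, and the members share the depth and scaling of each library.

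The test of the difference between the arms found 0 members past the threshold, where 0.00636% of all genes passed (1 gene). DESeq2 and limma voom also found 0 members, where DESeq2 had 45 of all genes higher and 17 lower, and limma voom 1 and 0. In edgeR 3 members had an unadjusted p under 0.05, among them Rpl31 (mASO arm minus siRNA arm −0.63 ± 0.26, adjusted p = 0.66, edgeR) and Rpl26 (−0.63 ± 0.23, adjusted p = 0.643). These were named after their values were seen. The 95% interval of this difference lay within ±1 for 79 of the 83 members and within ±0.5 for 20, so a modest difference between the arms would have been missed for most of them.

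Between the 2 controls, mASO Scrbl against siCntrl, 0 members passed, where 0.0127% of all genes did (2 genes). In DESeq2 1 member was higher, where 24 of all genes were higher and 55 lower. In limma voom 0 members passed, where 0 of all genes were higher and 2 lower. In edgeR 2 members had an unadjusted p under 0.05. These were Rpl26, a large subunit gene whose protein is known in human cells to promote translation of p53 mRNA, and Rpl37a. Rpl26 had 49.0, 54.6 and 38.5 CPM in mASO Scrbl, against 31.9, 23.6 and 30.9 CPM in siCntrl. The groups were apart, with a log2 fold change of 0.72 ± 0.16 (adjusted p = 0.34, edgeR). The mASO STAT3 libraries had 36.6, 33.8 and 46.4 CPM and the siSTAT3 libraries 36.7, 37.8 and 35.5 CPM, with means between those of the controls. Between the 2 STAT3 loads, mASO STAT3 against siSTAT3, 0 members passed in edgeR, DESeq2 or limma voom. Of all genes 0% passed in edgeR, while DESeq2 had 59 higher and 20 lower. In edgeR 2 members had an unadjusted p under 0.05, among them Rpl31, lower in mASO STAT3.

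Paralogs with a symbol of their own are known to replace or supplement a parent protein in some tissues. Rpl22l1, which rises when Rpl22 is deleted in mice, had 72.5, 79.6 and 54.6 CPM in siSTAT3, against 76.0, 53.5 and 96.5 CPM in siCntrl (log2 fold change −0.13, 95% interval −0.63 to 0.38). Its parent Rpl22 gave 0.06 (−0.22 to 0.33). In the mASO arm the values were −0.19 (−0.69 to 0.31) for Rpl22l1 and 0.15 (−0.12 to 0.43) for Rpl22. Rpl7l1 gave −0.07 and 0.04 in the siRNA and mASO arms and its parent Rpl7 0.02 and −0.14, while Rpl36al gave −0.04 and 0.12 and its parent Rpl36a −0.03 and −0.03. Rps27l was thus the one paralog of the 4 tested to pass. Rps3a2 and Rps3a3 are named as copies of Rps3a1, and reads could be split among the 3 genes, so their levels are uncertain. Rps3a3 had the lowest log2 fold change of the family in the siRNA arm, −0.77 (−1.58 to 0.03), at a level of 1.25, 1.65 and 0.676 CPM in siSTAT3, against 1.84, 1.80 and 2.5 CPM in siCntrl, and did not pass. It had 1.92, 1.25 and 1.89 CPM in mASO STAT3, against 1.87, 3.73 and 2.07 CPM in mASO Scrbl, with overlapping groups (−0.60, 95% interval −1.39 to 0.19).

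Levels between genes were compared per kilobase of coding length (GENCODE M21), as the mean TMM-scaled CPM over the 12 libraries. The median of the 81 members with a coding length was 655 CPM per kb, with 613 for the large subunit, 705 for the small subunit, 1278 for the stalk and 362 for the paralogs. The lowest were Rpl24 at 18.2, Rpl29 at 35.3 and Rpl26 at 87.2 CPM per kb, and the highest Rpl41 at 5418, Rps29 at 2342 and Rplp1 at 2178. The mRNA levels of genes for proteins of a single particle thus spread widely on this measure. Rpl41 has a coding length of 75 bases, so reads from its untranslated regions weigh heavily in this measure. The labels do not say how reads that also match pseudogenes were counted, and its part in the low levels was not tested. The table held 180 rows named as family pseudogenes, by a family symbol followed by -ps. Their counts equalled 0.670% of those of the members, but 21.5% for Rps2 and 12.8% for Rpl3, whose levels are uncertain for that reason. Among the members that passed, these rows held at most 3.69% of the parent's counts, in Rpl31. Pseudogenes under other symbols were not sought, so these shares may be too low.

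**Figure D4:**
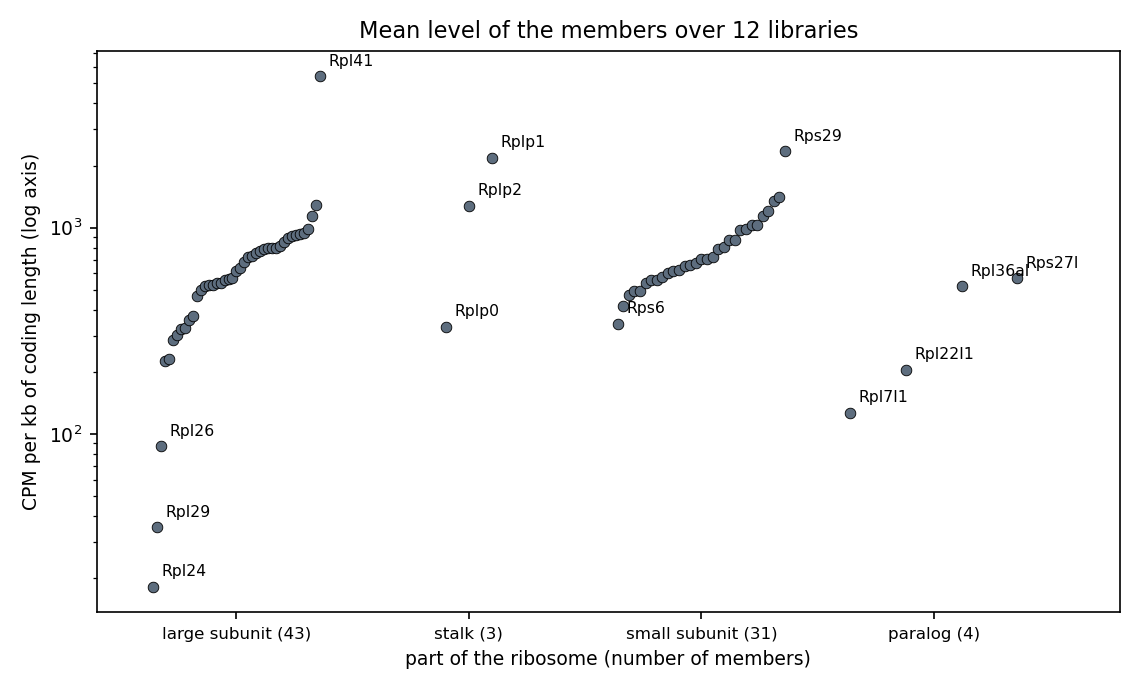
Mean level of the 81 tested members with a coding length, in TMM-scaled CPM per kilobase of coding length on a log axis, over the 12 libraries and by part of the ribosome. The median is 655, with Rpl24, Rpl29 and Rpl26 at the low end and Rpl41 (5418), Rps29 (2342) and Rplp1 (2178) at the high end.

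Properties of the genes were set beside the changes as a description. Across 81 members, Pearson r between log2 fold change and coding GC content was 0.287 in the siRNA arm and 0.267 in the mASO arm. Over 13294 genes tested it was −0.0052 and 0.064. Between the controls it was −0.158 for the members and −0.198 over all genes. The 74 mitochondrial ribosomal protein genes had values of 0.366 and 0.396 in the arms and −0.381 between the controls, so the trend was not particular to the members. The 27 members with the lowest GC content had 1 higher and 4 lower in the siRNA arm, and the 27 with the highest had 6 higher and 0 lower. In the mASO arm the lowest 27 had 1 higher and 3 lower, and the highest 27 had 1 and 0. Of all genes tested, 22.4% were higher and 23.4% lower in the siRNA arm, with 21.3% and 22.5% in the mASO arm. Across the members r with log2 coding length was −0.218 and −0.356. Of 30 members that host a snoRNA, 2 were higher and 3 lower in the siRNA arm, with a median of −0.11, and 0 and 2 in the mASO arm, with a median of −0.17. Of the 51 tested members with no snoRNA, 8 were higher and 3 lower in the siRNA arm, with a median of 0.06, and 2 and 4 in the mASO arm, with a median of −0.03. These values share library composition and depth, and the part of either property in the changes was not tested.

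Several members serve as quantitative PCR references. Of the 10 listed (Rplp0, Rpl13a, Rpl19, Rpl27, Rpl30, Rpl32, Rpl4, Rps9, Rps18 and Rps29), Rps18 was the one that passed on TMM-scaled totals, in the siRNA arm, while on library totals 7 were lower in the siRNA arm and 8 in the mASO arm. The log2 fold changes of the 10 ran from −0.28 to 0.37 in the siRNA arm and from −0.32 to 0.41 in the mASO arm. The highest in the mASO arm was Rps29, a zinc-binding protein of the small subunit head, with 519, 345 and 421 CPM in mASO STAT3, against 309, 322 and 333 CPM in mASO Scrbl. Its groups were apart, at 0.41 (95% interval 0.01 to 0.82, adjusted p = 0.089, edgeR). Of 14 references outside the family, 9 passed in the siRNA arm and 8 in the mASO arm on TMM-scaled totals, and 12 in each on library totals. Actb, cytoskeletal actin, averaged 587 CPM in siSTAT3 against 1566 CPM in siCntrl and, for the mASO pair, 711 CPM in mASO STAT3 against 1682 CPM in mASO Scrbl. Gapdh, a glycolytic enzyme, averaged 612 CPM in siSTAT3 against 644 CPM in siCntrl and, for the mASO pair, 613 CPM in mASO STAT3 against 818 CPM in mASO Scrbl, passing in the mASO arm alone on TMM-scaled totals (−0.42 ± 0.15, adjusted p = 0.036, edgeR) and in both arms on library totals (−0.57 and −0.996, adjusted p = 0.00424 and 6.18e-05). Of the 20 members known as Diamond-Blackfan anaemia genes, 2 were higher and 1 lower in the siRNA arm on TMM-scaled totals, with 0 and 2 in the mASO arm. That is 15% and 10%, near the 19.3% and 9.64% of the family and below the 45.7% and 43.8% of all genes tested.

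Ribosome parts that the symbol rule leaves out were read off the same fit. Fau, which encodes a small subunit protein fused to a ubiquitin-like one, had 379, 611 and 339 CPM in siSTAT3, against 241, 255 and 310 CPM in siCntrl. It had 536, 348 and 402 CPM in mASO STAT3, against 257, 266 and 237 CPM in mASO Scrbl. It rose in both arms, by 0.72 ± 0.22 (adjusted p = 0.0142, edgeR) and 0.76 ± 0.22 (adjusted p = 0.0113) on the log2 scale, without overlap. Gnb2l1, the older symbol of the small subunit scaffold Rack1, gave −0.02 ± 0.14 and −0.27 ± 0.14, and passed in neither. On library totals Fau kept a positive log2 fold change of 0.22 and 0.17 but no longer passed (adjusted p = 0.356 and 0.482), and Gnb2l1 was lower in both arms.

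The ribosome of the mitochondrion, built from nuclear genes of its own and known for making a few membrane proteins of oxidative phosphorylation, was read off the same fit. Of its 74 tested genes, 31 were higher and 3 lower in the siRNA arm, with a median log2 fold change of 0.27, and 30 and 6 in the mASO arm, also with a median of 0.27. Mrps24 averaged 66.3 CPM in siSTAT3 against 33.7 CPM in siCntrl and, for the mASO pair, 68.8 CPM in mASO STAT3 against 30.9 CPM in mASO Scrbl. Mrpl15 averaged 158 CPM in siSTAT3 against 82.9 CPM in siCntrl and, for the mASO pair, 160 CPM in mASO STAT3 against 93.6 CPM in mASO Scrbl. Mrps22 fell in both arms (−0.77 ± 0.18 and −0.91 ± 0.18), also on library totals. The mitochondrial list therefore had 41.9% of its genes higher in the siRNA arm and 40.5% in the mASO arm, where the cytosolic family had 12% and 2.41% and all genes 22.4% and 21.3%. The direction turned on library totals, with 5 mitochondrial genes higher and 27 lower in the siRNA arm (median −0.22) and 2 and 34 in the mASO arm (median −0.31), while the medians stayed above those of the cytosolic family and of all genes given above.

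**Figure D5:**
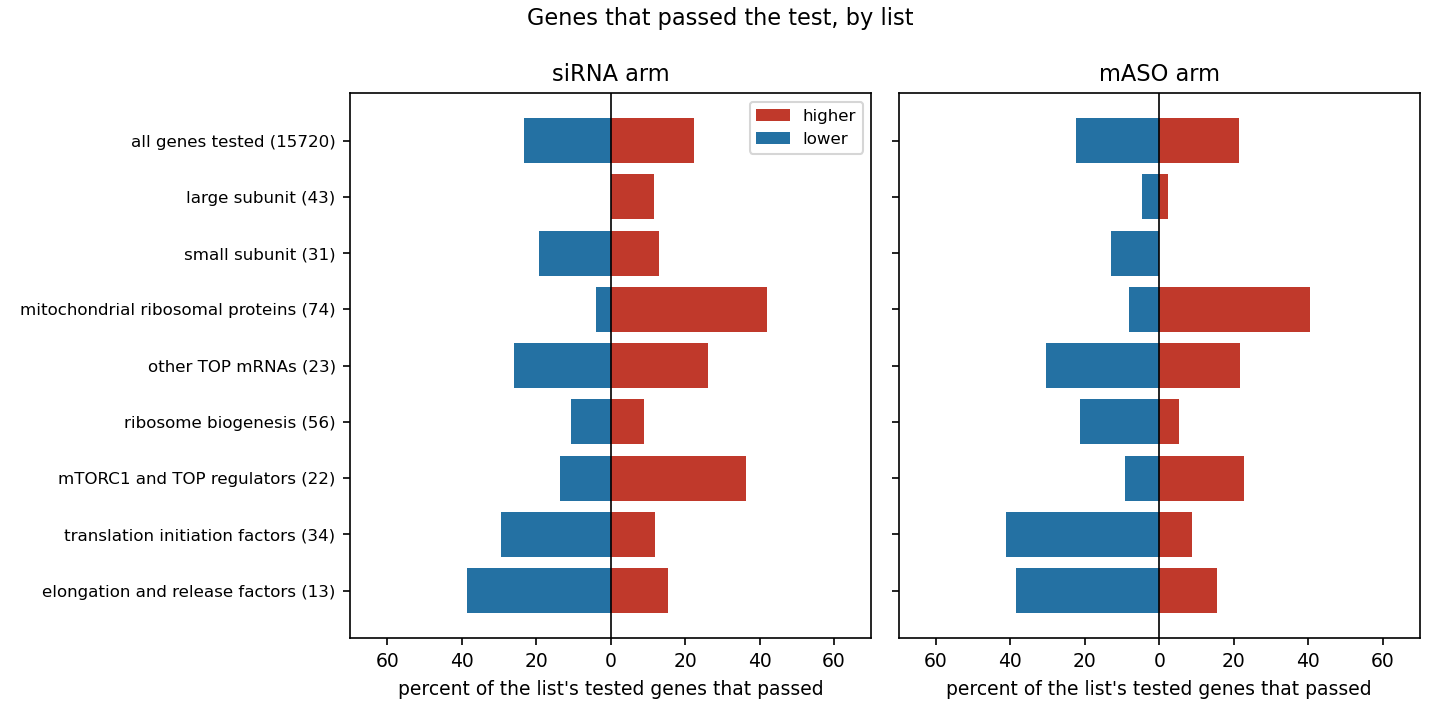
Percent of the tested genes of each list that passed the test higher (red) or lower (blue) in the siRNA arm (siSTAT3 over siCntrl) and the mASO arm (mASO STAT3 over mASO Scrbl), on TMM-scaled totals, with the number of tested genes in brackets. Both cytosolic subunits fall short of all genes in either colour, while the mitochondrial ribosomal proteins reach 41.9% and 40.5% higher, a direction that turns on library totals (5 and 2 higher, 27 and 34 lower).

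Other mRNAs known to share the TOP start were counted beside the family. Of 23 tested, 6 were higher and 6 lower in the siRNA arm, with a median of 0.06, and 5 and 7 in the mASO arm, with a median of −0.08. That is 26.1% and 26.1% in the siRNA arm, where all genes had 22.4% and 23.4%. In the mASO arm it is 21.7% and 30.4%, where all genes had 21.3% and 22.5%. Eif4b, an initiation factor that helps the helicase eIF4A, averaged 394 CPM in siSTAT3 against 166 CPM in siCntrl and, for the mASO pair, 306 CPM in mASO STAT3 against 188 CPM in mASO Scrbl. Eef2, the translocation factor, averaged 2328 CPM in siSTAT3 against 1288 CPM in siCntrl and, for the mASO pair, 2028 CPM in mASO STAT3 against 1453 CPM in mASO Scrbl. Nap1l1, a histone chaperone, averaged 64.9 CPM in siSTAT3 against 157 CPM in siCntrl and, for the mASO pair, 70.7 CPM in mASO STAT3 against 171 CPM in mASO Scrbl. On library totals the list had 4 higher and 13 lower in the siRNA arm, and the mASO arm had 0 and 17, and Eef2 and Eif4b did not pass in the mASO arm. Of 6 tested non-coding TOP hosts of snoRNAs, Snhg6 was the one that passed, with log2 fold changes of 0.71 ± 0.18 and 0.68 ± 0.18, and on library totals it did not pass.

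Genes that build and drive the ribosome were counted the same way. Of 56 tested biogenesis genes, 5 were higher and 6 lower in the siRNA arm, with a median of −0.06, and 3 and 12 in the mASO arm, with a median of −0.20. Pno1, needed to mature the small subunit, averaged 23.9 CPM in siSTAT3 against 51.6 CPM in siCntrl and, for the mASO pair, 28.2 CPM in mASO STAT3 against 67.3 CPM in mASO Scrbl. Eif6, which keeps the subunits apart until the large one is mature, fell in both arms (−0.61 ± 0.17 and −1.19 ± 0.17), as did Npm1, the nucleolar chaperone (−0.64 ± 0.18 and −1.14 ± 0.18). Of 22 mTORC1 and TOP regulators, 8 were higher and 3 lower in the siRNA arm, and the mASO arm had 5 and 2. Larp1, which binds TOP mRNAs, averaged 141 CPM in siSTAT3 against 99.7 CPM in siCntrl and, for the mASO pair, 139 CPM in mASO STAT3 against 102 CPM in mASO Scrbl. Deptor, an inhibitor of mTOR, averaged 156 CPM in siSTAT3 against 72.8 CPM in siCntrl and, for the mASO pair, 148 CPM in mASO STAT3 against 55.4 CPM in mASO Scrbl. Of 34 translation initiation factors 4 were higher and 10 lower in the siRNA arm, and the mASO arm had 3 and 14, and of 13 elongation and release factors 2 were higher and 5 lower in each. On library totals, where 46.2% and 50.5% of all genes were lower in the siRNA and mASO arms, 29 and 39 of the biogenesis genes were lower, 9 and 12 of the regulators, 26 and 30 of the initiation factors and 8 and 9 of the elongation and release factors, and Larp1 no longer passed.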

How the data were processed

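RNA from mouse livers was extracted with TRIzol and made into 12 libraries with a stranded Illumina mRNA kit, per the labels' protocols. Analysed were the raw counts that the authors deposited, whole numbers for each gene symbol with no normalization. Their other deposited table holds a normalized signal. Its values equal the raw counts over 1 constant per library, and only this was checked. TopHat and Cufflinks appear, with no version, per the submitters' processing notes. Counting tool, genome build, handling of reads with several matches and use of strand when counting were not given in the sources used here.

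One edgeR fit (version 4.0.16, in R 4.3.3) took all 12 libraries, with 1 coefficient for each group, TMM factors and filterByExpr (minimum count 10, minimum total 15). It kept 15720 of 25540 genes. The robust quasi-likelihood F test had 8 residual degrees of freedom, with a common biological coefficient of variation (BCV) of 0.247, and p-values were adjusted over all genes tested. Each SE is the absolute log2 fold change over the square root of F. Compared were siSTAT3 with siCntrl (the siRNA arm), mASO STAT3 with mASO Scrbl (the mASO arm), the arms with each other, the controls and the STAT3 loads. The procedure was tested on simulated counts. Replicate libraries were compared for duplicates, and every pair differed by a chi-square per degree of freedom of 49.1 or more.

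The members and lists were chosen with earlier results of these data known. By rule, values are given for Stat3, the 4 highest and 4 lowest changes in each arm, the stalk genes, Rpsa, paralogs beside their parents, family members used as quantitative PCR references and, from each list, genes that passed or had the smallest p. Only part of the last kind is printed, picked after the values were seen, as were the other members that passed. Some genes that the rule names are not reported here. Coding length, GC content and snoRNA hosts come from GENCODE M21 (GRCm38) by symbol, and promoter windows from RefSeq (GRCm38.p6). Alternatives were DESeq2's size factors and Wald test (version 1.42.0), limma voom (version 3.58.1), library totals, 2 other filters, a replicate block, a fit of each comparison's own libraries, and each library left out in turn. Counts without paralogs and copies, and the lists on library totals, were added after the data were seen.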

Additional observations from a re-analysis of the deposited data

How the results depend on the processing

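With library totals in place of TMM, 57 members passed in the siRNA arm (0 higher, 57 lower) and 71 in the mASO arm (0 higher, 71 lower), where 46.2% and 50.5% of all genes were lower. Sign changes are listed only for the named members followed through every alternative, not for the whole family. On TMM-scaled totals 40 of the 83 tested members had a positive log2 fold change in the siRNA arm and 25 in the mASO arm. Under library totals, among the members followed, the log2 fold change turned negative, with a pass gained or lost, for Rpl29 (−0.13), Rps18 (−0.12), Rpl7 (−0.47), Rpl22 (−0.44) and Rpl19 (−0.46) in the siRNA arm and for Rplp1 (−0.52), Rpl7l1 (−0.54), Rpl36al (−0.46), Rpl22 (−0.43), Rpl10 (−0.58) and Rps9 (−0.57) in the mASO arm. It turned negative with no pass under either scaling for Rplp1 (−0.32), Rpl10 (−0.24), Rpl32 (−0.22) and Rps29 (−0.13) in the siRNA arm and for Rpl28 (−0.43), Rps15 (−0.12), Rps18 (−0.25), Rps27 (−0.24) and Rps29 (−0.17) in the mASO arm. With the compared libraries alone, 6 members passed in the siRNA arm (4 higher, 2 lower). Leaving out each library gave 8 to 14 members in the siRNA arm (2 to 12 higher, 2 to 11 lower) and 4 to 11 in the mASO arm (1 to 7 higher, 2 to 6 lower). DESeq2's Wald test gave 1 member between the controls, where 24 of all genes were higher and 55 lower. The cause of these changes was not tested. With the replicate number as a block, 13 members passed in the siRNA arm and 8 in the mASO arm; residuals of libraries sharing a number correlated at −0.110 to 0.187, and the numbers were therefore read as names only. DESeq2's size factors and Wald test, limma voom, the stricter filter and no filter kept the counts of both arms within 1.5 times. Of 1064 values of named members under the alternatives, 930 kept their side of the threshold and, where they passed, their direction. Of the rest, 76 lost a pass, 47 gained one and 11 turned in sign with a pass gained or lost. The 930 include members that passed in neither fit, so they do not measure how stable the calls were. Among the named calls, only Rps23 in both arms and Rps3a1 in the siRNA arm held under every alternative. Without paralogs and copies, 15 and 7 members passed. With 3 libraries a group, the test may miss changes of the size seen here, and the levels of members with many pseudogenes are uncertain.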
